A study of Rattus norvegicus with 4 samples.

Results

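The genes of the prostaglandin and leukotriene pathway were followed in rat colon through 10 listed genes: Ptgs1, Ptgs2, Ptges, Ptgis, Hpgd, Ptger2, Ptger3, Ptger4, Alox5 and Lta4h. A gene was taken from the deposited table where its RefSeq accession carried that symbol in the RefSeq gene table and the row held a value on all 4 arrays. All 10 had 1 row each, and 9 of them were measured, among 18350 measured rows of 26420 in all. The row of Ptger2 was blank on all 4 arrays, so this receptor for prostaglandin E2 has no value here.

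The arrays hold whole colon tissue of male Sprague Dawley rats, from 2 control rats and 2 rats that received mesenchymal stem cell transplantation (MSCT), with 1 one-color NimbleGen array per rat. Rats of the MSCT group received TNBS (2,4,6-trinitrobenzene sulfonic acid) in ethanol by rectal infusion, which causes colitis, and 1 day later mesenchymal stem cells by the tail vein, bought as a culture labeled with green fluorescent protein and virally transduced. The control rats were not transplanted. The sources disagree on whether they had colitis: the sample descriptions call them normal, and the paper sets the transplanted rats against rats with inflammatory bowel disease (IBD), so transplantation cannot be told apart from colitis if the descriptions hold. The sources also disagree on the day of sampling, and the labels give no age. Of the listed markers, 7 of 11 for colon epithelium and 5 of 10 for smooth muscle had values on all 4 arrays. The others had no row by name. Those measured include Epcam, an epithelial adhesion molecule, and Acta2, the actin of smooth muscle. Over all measured rows, Pearson's r between arrays was 0.953 in the control group, 0.964 in the MSCT group and between 0.934 and 0.959 across groups (rows are not independent replicates). With so few arrays, the precision of every value below is limited.

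Prostaglandins and leukotrienes are lipid mediators made from arachidonic acid, which phospholipases A2 release from membranes. Cyclooxygenases convert it to prostaglandin H2, from which terminal synthases make prostaglandin E2, prostacyclin and other prostanoids, while 5-lipoxygenase opens the path to leukotrienes. In the colon, prostaglandin E2 acts on secretion, motility and repair of the epithelium, and leukotriene B4 attracts neutrophils. Drugs that block cyclooxygenase can damage the gut wall.

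Higher in the MSCT group were the constitutive cyclooxygenase Ptgs1 (2.43-fold), the prostaglandin E synthase Ptges (2.59-fold) and the prostacyclin synthase Ptgis (1.81-fold). Lower on both MSCT arrays than on either control array were the receptor Ptger3 (1.54-fold) and the 5-lipoxygenase Alox5 (1.27-fold). Neither had an unadjusted limma p under 0.05. The inducible cyclooxygenase Ptgs2, the degrading enzyme Hpgd, the receptor Ptger4 and the leukotriene enzyme Lta4h had arrays that overlapped between the groups. Values were compared on the log2 scale of the deposited intensity by limma across all rows. The screen used for calls took the limits of the study's methods, an unadjusted p under 0.05 and a difference over 2-fold, with limma's p. With the p of the plain test with equal variances, 1 of the 9 genes (Ptgs1) passed these limits, and Ptges did not. The number of rows past them by the plain test equals the paper's number of changed genes. The number by limma does not. A gene or marker that is said below to have passed, with no mention of the screen, had an unadjusted p under 0.05. By limma, Ptgs1 and Ptges passed the screen, both higher, 2 of the 9 genes, against 4.63% of all rows (2.12% higher and 2.51% lower in the MSCT group). With Ptgis, 3 of the 9 had an unadjusted p under 0.05, all higher, against 12.0% of all rows (4.80% higher and 7.17% lower). In 5 of the 9 genes every array of one group lay beyond every array of the other, as in 45.8% of all rows. The median difference of the 9 genes was 0.12, and that of all rows was -0.02. After Benjamini-Hochberg adjustment over all rows, no gene passed a p of 0.05 by limma (0.260 at the lowest for Ptgs1, and 0 of 18350 rows). An unadjusted p under 0.05 was reached by 2196 rows with limma and by 1772 with the plain test with equal variances. For a single gene, an exact permutation of 2 arrays against 2 cannot go below a two-sided p of 0.333, so each p of limma rests on a variance shared between rows.

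**Figure D1:**
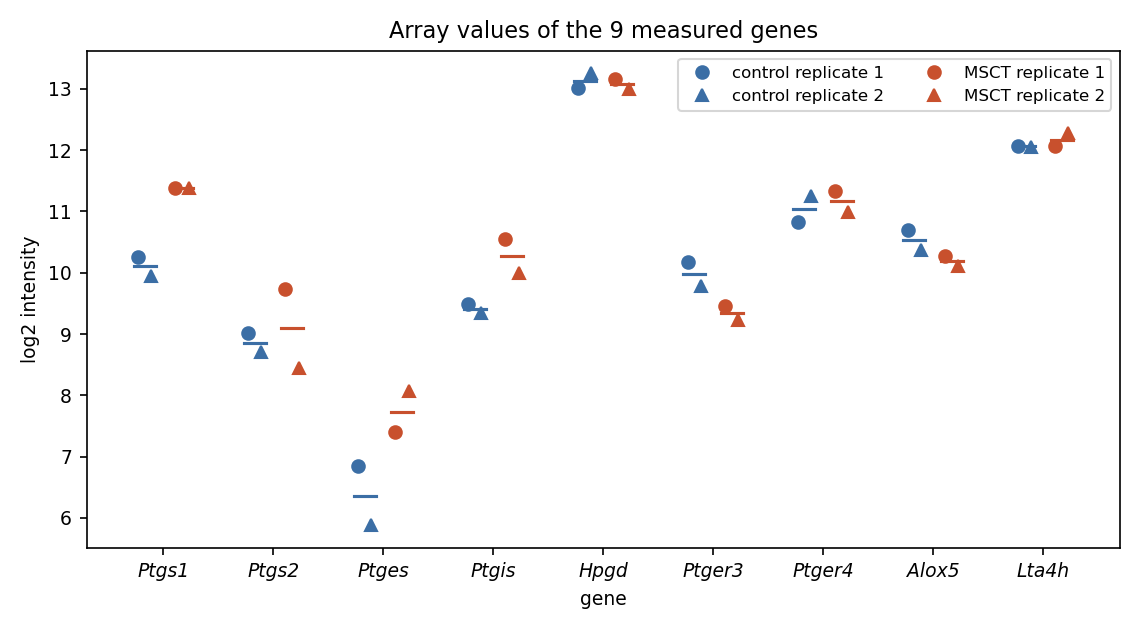
Log2 intensity (vertical axis) of the 9 measured genes (horizontal axis) on each of the 4 arrays, with circles for replicate 1, triangles for replicate 2 and a bar at each group mean. Ptgs1, Ptges and Ptgis lie higher on both MSCT arrays, and Ptgs2 lies at 9.74 on one MSCT array and 8.45 on the other. Heights are not comparable between genes.

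The cyclooxygenases were taken first. Ptgs1 (NM_017043) encodes the isoform that most tissues make all the time. Its log2 intensity was 10.26 and 9.94 in the control rats, against 11.39 and 11.38 in MSCT rats. Both MSCT arrays thus lay above both control arrays, and the MSCT arrays were closer to each other than the control arrays were. The difference was 1.28 (standard error 0.21, 95% interval 0.72 to 1.84), higher than that of 98.5% of rows. Limma gave an unadjusted p of 0.00256 for Ptgs1 and an adjusted p of 0.260. When any single array was dropped, Ptgs1 still differed by a value that lay between 1.12 and 1.44, and it passed the screen each time. In each such fit 1 group has 1 array, so the spread comes from the other group and from the variance shared between rows, and the lone array is assumed to vary alike. For Ptgs1 the MSCT group alone had an SD of 0.0020, against 0.23 in the control group, so its p with a control array dropped rests on the closer pair and says little about stability. With a variance that depends on intensity, limma gave Ptgs1 an adjusted p of 0.0129, and without the dimmest 50% of rows 0.0228. Over all alternatives the adjusted p of Ptgs1 ranged from 0.0129 to 0.643.

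Ptgs2 (NM_017232) encodes the isoform that inflammatory signals induce. Its log2 intensity was 9.02 and 8.70 on the control arrays, 9.74 on MSCT replicate 1 and 8.45 on MSCT replicate 2. The MSCT arrays lay on either side of both control arrays, and the SD of Ptgs2 was 0.91 in the MSCT group against 0.23 in the control group (n = 2 each). The difference was 0.23 (standard error 0.48), and its 95% interval, from -1.05 to 1.51, holds changes of over 2-fold in both directions. Without MSCT replicate 1 the difference of Ptgs2 was -0.41, and without MSCT replicate 2 it was 0.87.

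The windows around the start sites of both cyclooxygenase genes and of Ptges are shown because these genes make the substrate and the product of one path to prostaglandin E2. They hold 250 bases before the start site and 50 from it on, as given by RefSeq for the assembly GRCr8, where 9 of the 10 genes had a window. Ptgs1 and Ptges both lie on chromosome 3, Ptgs1 at chr3:39981169-39981468 on the plus strand and Ptges at chr3:34586938-34587237 on the minus strand, and Ptgs2 lies at chr13:64713813-64714112 on the plus strand. Capitals mark short motifs found on either strand among 5 searched by their letters: the Sp1 and KLF box (GGGCGG), the E-box (CACGTG), the TATA box (TATAAA), the cAMP response element (TGACGTCA) and the ETS core of PU.1 (GAGGAA).
Ptgs1: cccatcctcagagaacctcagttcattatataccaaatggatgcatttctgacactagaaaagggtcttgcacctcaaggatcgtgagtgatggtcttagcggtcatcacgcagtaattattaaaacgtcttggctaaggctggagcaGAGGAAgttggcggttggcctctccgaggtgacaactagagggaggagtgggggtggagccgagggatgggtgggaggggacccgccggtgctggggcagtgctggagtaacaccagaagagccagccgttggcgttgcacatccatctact
Ptgs2: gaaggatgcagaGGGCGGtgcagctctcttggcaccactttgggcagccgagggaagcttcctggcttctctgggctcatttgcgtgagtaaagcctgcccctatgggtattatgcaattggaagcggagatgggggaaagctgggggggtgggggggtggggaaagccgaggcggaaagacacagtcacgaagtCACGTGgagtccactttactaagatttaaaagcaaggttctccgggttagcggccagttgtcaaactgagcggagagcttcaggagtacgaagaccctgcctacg
Ptges: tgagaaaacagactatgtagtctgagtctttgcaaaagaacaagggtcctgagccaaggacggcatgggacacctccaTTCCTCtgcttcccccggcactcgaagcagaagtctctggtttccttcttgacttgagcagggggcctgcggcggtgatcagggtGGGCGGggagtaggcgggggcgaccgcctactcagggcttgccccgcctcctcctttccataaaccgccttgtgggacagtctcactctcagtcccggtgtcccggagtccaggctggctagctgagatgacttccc

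The window of Ptgs1 held an ETS core at base 149 and none of the other motifs. That of Ptgs2 held a Sp1 and KLF box at base 13 and an E-box at base 196. That of Ptges held an ETS core, read as TTCCTC, at base 79 and a Sp1 and KLF box at base 164. None of the marked motifs overlapped. Of 33469 windows of the same length, 27.6% held the ETS core, 33.1% the Sp1 and KLF box, 6.42% the E-box, 14.2% the TATA box and 1.83% the cAMP response element. The matches are descriptions of the letters and were not tested for binding.

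The terminal synthases Ptges and Ptgis followed the cyclooxygenases. Ptges (NM_021583), the microsomal enzyme that makes prostaglandin E2, had log2 intensities of 6.84 and 5.88 in the control rats, against 7.40 and 8.07 in MSCT rats. The groups did not overlap, but the control arrays were 58.9 and 115 on the linear scale and only 5.93% of rows were dimmer. The difference was 1.37 (standard error 0.43, 95% interval 0.22 to 2.53), with an unadjusted limma p of 0.0290 and an adjusted p of 0.364. In the dimmest 25% of rows, to which Ptges belongs, the median SD between replicates was 0.47, against 0.14 in the brightest 25%. Ptges did not pass the screen without control replicate 2 (difference 0.89) or without MSCT replicate 2 (1.04, with a p over the limit). The plain test with equal variances gave Ptges an unadjusted p of 0.144, and without control replicate 1 its difference was 1.85.

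Ptgis (NM_031557) makes prostacyclin, which relaxes vessels and is produced by vascular and smooth muscle cells. It read 9.49 and 9.34 on the control arrays, 10.55 on MSCT replicate 1 and 9.99 on MSCT replicate 2 (log2 intensity). The groups did not overlap, and the MSCT arrays were further apart than the control arrays. The difference was 0.86 (standard error 0.27, 95% interval 0.15 to 1.57), below the 2-fold limit, with an unadjusted limma p of 0.0271 and an adjusted p of 0.356. Without MSCT replicate 1 the difference of Ptgis was 0.58 and without MSCT replicate 2 it was 1.14, which passed the screen. Without control replicate 1 it was 0.93 and without control replicate 2 it was 0.79. The unadjusted p of Ptgis was under 0.05 in 1 of these 4 fits and was over it by the plain test.

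**Figure D2:**
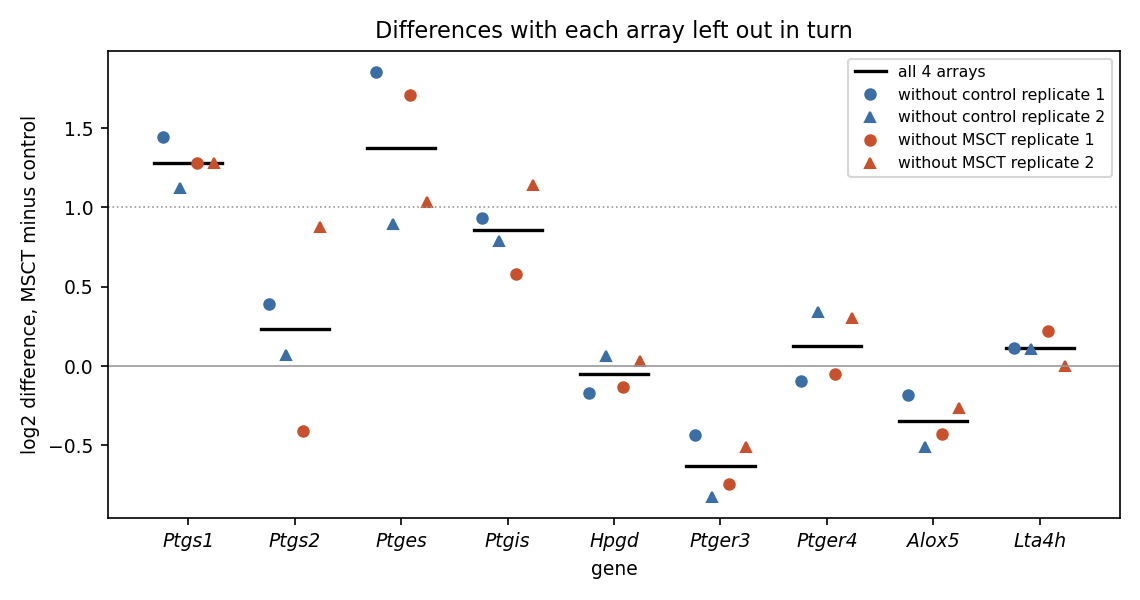
Log2 difference, MSCT minus control (vertical axis), of each measured gene (horizontal axis) with all 4 arrays (black bar) and with each array left out (points); the dotted line marks 2-fold. The points of Ptgs1 stay between 1.12 and 1.44, and those of Ptgs2, Hpgd and Ptger4 fall on both sides of 0.

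Hpgd (NM_024390) encodes 15-hydroxyprostaglandin dehydrogenase, which inactivates prostaglandin E2 and is abundant in gut epithelium. It was a bright row, and 95.3% of rows were dimmer. Its log2 intensity was 13.02 and 13.25 in the control rats, against 13.17 and 13.00 in MSCT rats, which overlapped. The difference was -0.05 (standard error 0.20), and the 95% interval from -0.60 to 0.49 excludes a 2-fold change in either direction under the model of limma.

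Of the receptors for prostaglandin E2, Ptger3 and Ptger4 were measured. Ptger3 (NM_012704) encodes the receptor EP3, which couples to inhibitory G proteins. Its log2 intensity was 10.17 and 9.78 in the control rats, against 9.46 and 9.23 in MSCT rats, lower on both MSCT arrays than on either control array. The difference was -0.63 (standard error 0.24, 95% interval -1.26 to 0.00), and the unadjusted limma p of 0.0507 missed the limit. It was -0.82 without control replicate 2 and -0.43 without control replicate 1. The p of Ptger3 passed 0.05 in some alternatives, at 0.0322 without the dimmest 25% of rows and 0.0376 without control replicate 2, but its difference was under 2-fold in each.

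Ptger4 (NM_032076) encodes EP4, which raises cyclic AMP and has been tied to repair of the colon epithelium. Its log2 intensity was 10.83 and 11.26 in the control rats, against 11.34 and 10.99 in MSCT rats. The groups overlapped, and the difference of 0.12 (standard error 0.26, 95% interval -0.57 to 0.82) turned to -0.09 when control replicate 1 was dropped and to -0.05 when MSCT replicate 1 was dropped.

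Alox5 and Lta4h lead from arachidonic acid to leukotriene B4. Alox5 (NM_012822), the 5-lipoxygenase of myeloid cells, had log2 intensities of 10.70 and 10.38 in the control rats, against 10.27 and 10.11 in MSCT rats. Both MSCT arrays were lower, by a difference of -0.35 (standard error 0.22, 95% interval -0.93 to 0.23, adjusted p = 0.575 by limma), which did not pass. The difference of Alox5 was -0.18 without control replicate 1 and -0.51 without control replicate 2. Lta4h (NM_001030031), the hydrolase that forms leukotriene B4, lay at 12.06 on both control arrays and on MSCT replicate 1 and at 12.28 on MSCT replicate 2. Its difference was 0.11 (standard error 0.19, 95% interval -0.41 to 0.63), with 0.00 without MSCT replicate 2 and 0.22 without MSCT replicate 1.

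**Figure D3:**
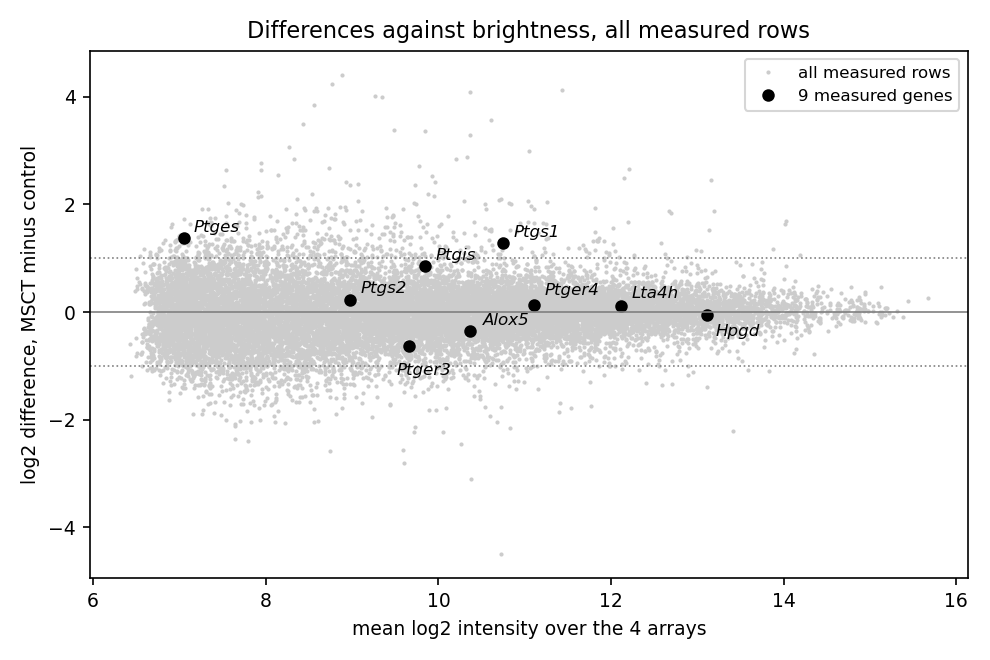
Log2 difference, MSCT minus control (vertical axis), against mean log2 intensity over the 4 arrays (horizontal axis) for all 18350 measured rows (grey) and the 9 genes (black); dotted lines mark 2-fold. Ptges lies among the dimmest rows, where differences scatter most, and Ptgs1 lies among the brighter 50% of rows, at 10.10 and 11.38 in the group means.

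A wider list of the pathway held 55 further genes. Of these, 42 had a row by name, 27 were measured and 15 were blank on all 4 arrays. Among the 27, 19 were higher and 8 lower in the MSCT group, where 48.0% of all rows were higher, with a median difference of 0.43 against -0.02 for all rows. The screen was passed by 4 of the 27, all higher, against 4.63% of all rows (2.12% higher). An unadjusted limma p under 0.05 was found for 5 higher and 1 lower, against 4.80% and 7.17% of all rows. In 17 of the 27 the groups were free of overlap, against 45.8% of all rows, and no gene of the list passed an adjusted p of 0.05.

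Upstream of the cyclooxygenases, 1 of 6 measured phospholipases A2 passed, against 12.0% of all rows. Pla2g2a (NM_031598), a secreted phospholipase with antibacterial activity, lay at 11.10 and 11.23 in the control rats, against 12.58 and 12.44 in MSCT rats (log2 intensity). The groups were far apart relative to their spread, with a difference of 1.34 (standard error 0.19, adjusted p = 0.260 by limma). Pla2g4a, the cytosolic enzyme that prefers arachidonic acid, differed by 0.43 and did not pass (adjusted p = 0.517 by limma). In the group of other prostanoid synthases, Ptgds, which makes prostaglandin D2, differed by 1.38 and did not pass (adjusted p = 0.432 by limma), with control arrays at 6.29 and 7.81 and MSCT arrays at 8.46 and 8.40. Without control replicate 1 the difference of Ptgds was 0.62, and without control replicate 2 it was 2.14 and passed the screen. The call of Ptgds changed with the setting. It passed the screen with the replicate number as a block, with array weights, with trend and robust variance, with equal array medians and with quantile normalization, and did not by the plain test. The mast cell form Hpgds was blank. Of the other prostanoid receptors, the thromboxane receptor Tbxa2r alone was measured, with a difference of 0.55 that did not pass (adjusted p = 0.561 by limma). It was 0.21 without control replicate 1 and 0.89 without control replicate 2.

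Of the 5 measured genes of prostaglandin transport and inactivation, Cbr1, a carbonyl reductase that can act on prostaglandin E2, had the largest difference. It lay at 12.64 and 12.68 in the control rats, against 13.64 and 13.19 in MSCT rats, and the groups did not overlap. The difference of 0.76 (adjusted p = 0.360 by limma) was below 2-fold. With an array left out, its unadjusted p was under 0.05 only without MSCT replicate 2, and without MSCT replicate 1 the difference was 0.53. By the plain test its p was over 0.05. Slco2a1, the prostaglandin uptake transporter, differed by -0.60 and did not pass (adjusted p = 0.436 by limma). It was -0.82 without control replicate 1, which passed, and -0.37 without control replicate 2.

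In the leukotriene branch, both further enzymes with a value were lower without passing, Ltc4s, the leukotriene C4 synthase, by a difference of -0.49 and Alox5ap, the protein that presents arachidonic acid to 5-lipoxygenase, by -0.48. The value of Alox5ap followed 1 array, with 10.29 on MSCT replicate 1 against 11.08 on MSCT replicate 2 and 11.20 and 11.13 on the control arrays. Without MSCT replicate 1 the difference of Alox5ap was -0.086, and without MSCT replicate 2 it was -0.87, which passed. Alox15 and both receptors for cysteinyl leukotrienes (Cysltr1 and Cysltr2) were blank. The receptor of leukotriene B4, Ltb4r, differed by 0.84 and did not pass, with 1 high array (8.19 on MSCT replicate 2 against 6.50 to 6.72 on the others). Without that array its difference was 0.10, and without MSCT replicate 1 it was 1.58 and passed the screen. The genes that passed were in leukotriene inactivation, where 8 of 9 measured genes were higher (48.0% of all rows) and 3 passed the screen, all higher (2.12% of all rows). Dpep1, a dipeptidase that cleaves leukotriene D4, lay at 11.10 and 11.62 in the control rats, against 13.09 and 12.98 in MSCT rats. Dpep1 thus differed by 1.67 (standard error 0.25, adjusted p = 0.260 by limma). It passed the screen with each array left out.

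Ggt5, a glutamyl transferase that converts leukotriene C4, differed by 1.02 (adjusted p = 0.322 by limma), with control arrays at 7.73 and 7.90 and MSCT arrays at 8.59 and 9.08. It missed the 2-fold limit without control replicate 1 (0.94) and without MSCT replicate 2 (0.78). Its unadjusted p was over 0.05 in both of these fits and by the plain test, so the screen was not passed there either. The Cyp4f enzymes hydroxylate leukotriene B4 and other fatty acids, and Cyp4f1 was higher while Cyp4f5 was lower. Cyp4f1 differed by 4.09 (standard error 0.64, adjusted p = 0.260 by limma), with control arrays at 7.45 and 9.20 and MSCT arrays at 12.69 and 12.13, and by 3.21 without control replicate 1. Cyp4f5 differed by -0.82 (adjusted p = 0.338 by limma), at 12.40 and 12.29 in the control rats, against 11.32 and 11.73 in MSCT rats. With an array left out, the unadjusted p of Cyp4f5 was under 0.05 only without MSCT replicate 2 (-1.03, past the screen), and by the plain test it was over 0.05. The members of this family are close in sequence, and how far their probes share signal cannot be read from the deposited values.

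**Figure D4:**
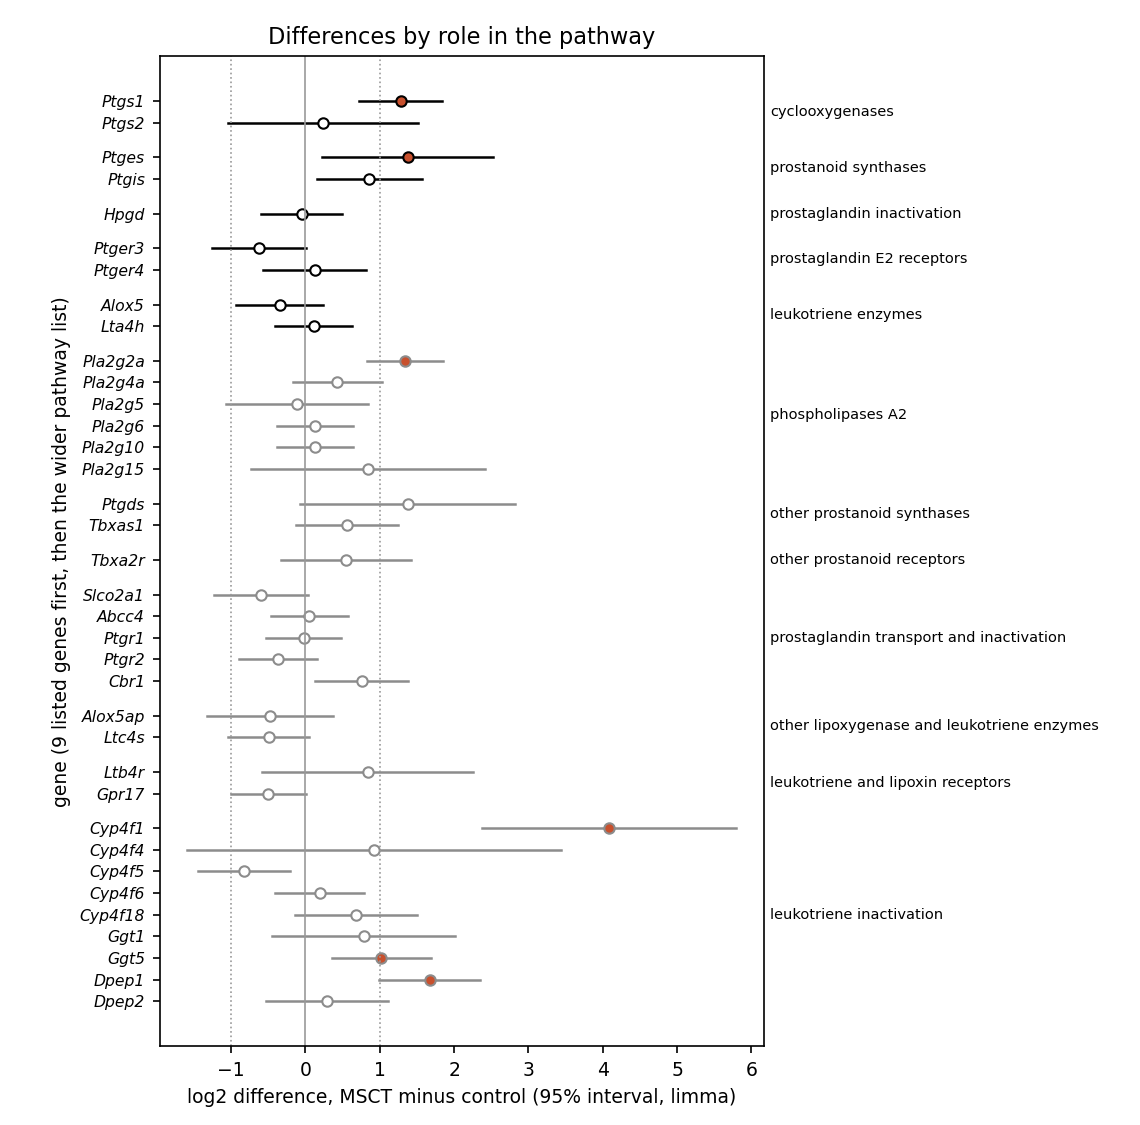
Log2 difference, MSCT minus control, with its 95% interval by limma (horizontal axis) for the 9 genes (black) and the 27 measured genes of the wider list (grey), grouped by role (vertical axis); filled points passed the screen and dotted lines mark 2-fold. The filled points are Ptgs1, Ptges, Pla2g2a, Cyp4f1, Ggt5 and Dpep1, all above 0.

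Markers of cell types that make or meet these lipids were read on the same arrays. In whole tissue, fewer cells of a type and less RNA per cell cannot be told apart. Of 11 listed markers of macrophages and monocytes, which express Ptgs1, Ptges and Alox5, 8 were measured and 7 were higher at an unadjusted limma p under 0.05 (4.80% of all rows), led by C1qb (1.61) and Cd68 (1.29). Their summed intensity was 17309 to 18788 in the control group and 24836 to 28798 in the MSCT group, while Itgam was blank. The median difference of this list was 0.96, and its part in the difference of Ptgs1 was not tested. Tuft cells of the epithelium also express Ptgs1 and Alox5, and all 3 measured of their 8 markers were lower, with a summed intensity of 1920 to 2331 in the control group and 1501 to 1565 in the MSCT group. Of all rows, 48.0% were higher. Plcg2 had the largest difference of the tuft cell markers, -0.66, and alone had an unadjusted limma p under 0.05 (7.17% of all rows, lower). The defining tuft cell genes Trpm5 and Pou2f3 had no row by name.

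Smooth muscle, a source of prostacyclin, had a median difference of 0.02 over 5 measured markers of 10, and none had a p under 0.05. Their summed intensity was 141287 to 171486 in the control group and 154976 to 159204 in the MSCT group, which overlapped. Endothelial markers had a median difference of 0.29 (3 measured of 6), summed to 1202 to 1987 and 1845 to 2035, and none passed. Of 6 measured fibroblast markers of 8, 5 were higher (48.0% of all rows), 2 of them at an unadjusted limma p under 0.05 (4.80% of all rows). The higher ones include Dcn and Lum, at 0.01 and 0.03, and Thy1 differed by -0.22. Col3a1 had the largest difference (0.78) but did not pass, and Vim (0.68) and Col1a2 (0.62) passed. The sums of the fibroblast markers were 39717 to 55472 in the control group and 61312 to 65838 in the MSCT group, and their part in the difference of Ptgis was not tested. Epithelial markers, whose cells express Hpgd and Ptger4, had a median difference of 0.12 with none passing (7 measured of 11, sums of 120648 to 123466 and 127921 to 134092).

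Of the granulocyte lists, 2 of 9 neutrophil markers were measured, both higher (48.0% of all rows), with sums of 278 to 330 and 516 to 539. S100a8 and Cxcr2 were blank. Both measured rows were dim, with 15.6% of rows dimmer than Fcgr3a and 18.1% dimmer than S100a9. Fcgr3a, with a difference of 1.10, passed the screen (2.12% of all rows, higher), and S100a9 did not pass. No eosinophil marker was measured. Of 9 mast cell markers, 4 were measured. Their sum was 946 to 1088 in the control group and 2841 to 3729 in the MSCT group. It followed 1 row, NM_172044 (Mcpt1 in the gene table, with a difference of 4.41). Hdc, a dim row, was higher on both MSCT arrays by 0.86 without passing, and Tpsab1 and Kit differed by -0.09 and 0.18. The fold of NM_172044, 21.28, is the one the paper lists for Mcpt2, and the paper lists Mcpt1 as higher too. The 3 measured of 10 B and T cell markers had a median difference of 0.13, with none passing, and mesothelial markers one of -0.19 (4 measured of 6, none passing). All 4 measured erythrocyte genes were higher (48.0% of all rows), with sums of 9310 to 12734 in the control group and 20388 to 22095 in the MSCT group. Of these, 3 had an unadjusted limma p under 0.05 (4.80% of all rows, higher). Hbb, with a difference of 1.18, passed the screen (2.12% of all rows, higher). The part of these lists in the differences of the pathway genes was not tested.

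**Figure D5:**
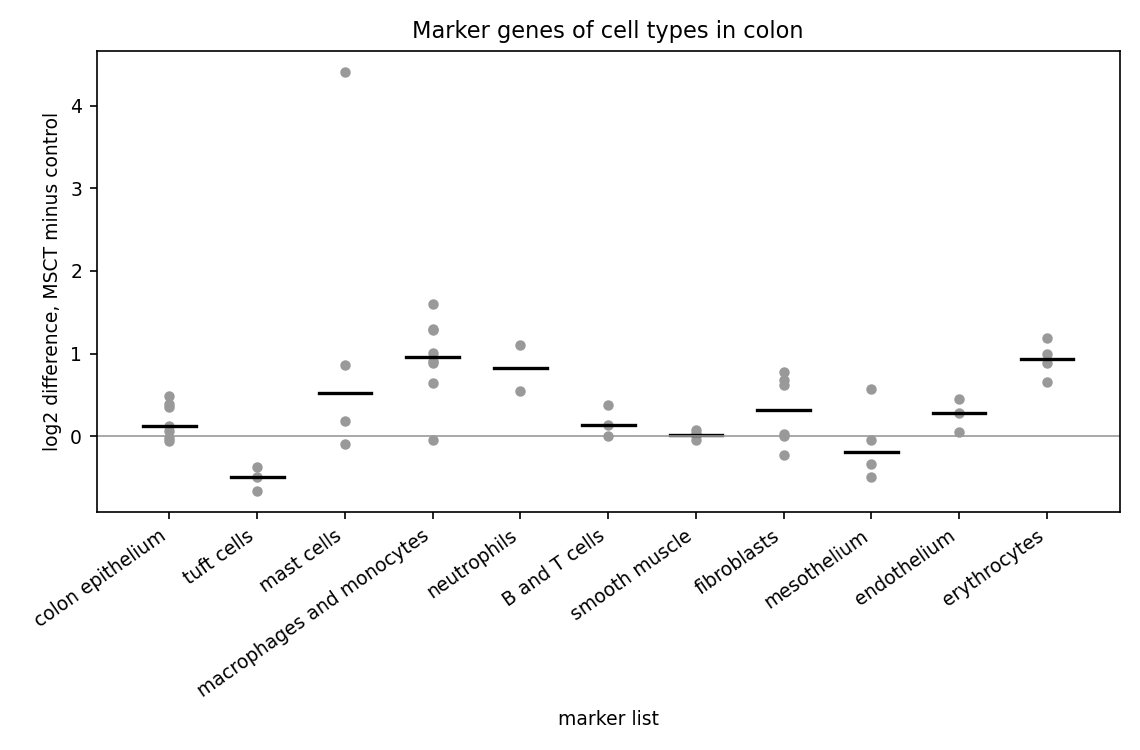
Log2 difference, MSCT minus control (vertical axis), of each measured marker gene (points) by cell type list (horizontal axis), with a bar at the list's median. The macrophage list has its median at 0.96, the tuft cell list at -0.49 and the smooth muscle list at 0.02.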

How the data were processed

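Colon RNA of 2 control and 2 MSCT rats was hybridized to one-color NimbleGen arrays. Per the paper's methods, the arrays were scanned with a GenePix scanner and read with NimbleScan, and the submitters' processing notes name RMA without its settings. The authors deposited 1 linear intensity per RefSeq transcript and array. The rule that left 8070 of 26420 rows blank is not given in the sources used here, so a blank row may be dim or removed for another reason. The intensities were used as log2 values, with no pseudocount, filter or further scaling. Groups were compared by limma 3.58.1 (lmFit and eBayes) in R 4.3.3 across all 18350 measured rows, with Benjamini-Hochberg adjustment over all of them. The code was tested on simulated data. Row accessions were matched to symbols in RefSeq's gene table of GRCr8 (7062 of the measured rows), used for names only; promoter windows with their coordinates came from the RefSeq promoter table of the same assembly. Genes named are all members, pathway genes with an unadjusted p under 0.05 or the largest difference of their role, and at most 2 markers per list. Outside this rule, Pla2g4a, Slco2a1, Alox5ap, Acta2, Epcam, Tpsab1, Kit, Col1a2, Dcn, Lum, Thy1 and the blank genes were picked after seeing the values. The members and lists were chosen with earlier results of these data known. Alternatives were a plain test with equal variances (which the one-way analysis of variance of the methods becomes for 2 groups), other scaling, leaving out dim rows, other variance models, weights per array, a block for the replicate number, linear means and leaving out each array. Names were matched with pandas 2.3.3 under Python 3.11.15, and figures drawn with matplotlib 3.10.9.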

Additional observations from a re-analysis of the deposited data

How the results depend on the processing

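Of 104 differences of the 9 genes recomputed under the alternatives with a test, 95 kept their direction and their side of the screen. The 9 differences of linear means have no test and kept their direction. The exceptions were Ptges, which no longer passed the screen in 3, Ptgis, which passed the screen in 1, and 5 changes of sign in Ptgs2, Hpgd and Ptger4. Ptgs1 passed the screen in all 12 alternatives with a test. With each array left out, Ptgs2 lay between -0.41 (without MSCT replicate 1) and 0.87, and Hpgd between -0.17 and 0.066 (without control replicate 2), with 0.032 without MSCT replicate 2. Ptger4 lay between -0.091 (without control replicate 1) and 0.34, with -0.052 without MSCT replicate 1, and the median of the 9 genes between -0.052 (without MSCT replicate 1) and 0.30. The number of the 9 genes past the screen, 2 by limma, was 1 by the plain test with equal variances, 1 without the dimmest 25% or 50% of rows (which leave out Ptges) and 1 to 2 with each array left out. At an unadjusted p under 0.05, 1 of the 9 passed by the plain test, against 1772 of 18350 rows. By limma it was 3 of the 9, against 2196 rows. The 850 rows past the screen became 388 by the plain test, 251 without the dimmest 50% of rows and 934 to 1565 with each array left out, 1565 without control replicate 2 and 1503 without MSCT replicate 2. With each array left out, the genes at an unadjusted p under 0.05 were not set against a share of all rows, so no count of them is given. After adjustment over all rows tested, 247 rows and 1 of the 9 genes (Ptgs1) passed 0.05 by limma without the dimmest 50% of rows, and 387 rows and 1 of the 9 genes (Ptgs1) with trend and robust variance, together with 3 and 4 genes of the wider list. Of the wider list, 4 genes passed the screen by limma, and 3 to 5 did in each alternative that kept all 4 arrays. Some of these alternatives were added for this count after seeing the data. With the replicate number as a block (replicate block), 2 of the 9 genes and 971 rows passed the screen. The labels do not tie this number to a shared litter or day. In that fit 4 of the 9 had an unadjusted limma p under 0.05, Ptger3 (0.0351) among them. No share of all rows at that limit was counted for the fit, so the 4 cannot be set against one. Of the wider list, Ptgds passed the screen as well. The deviations of replicate 1 correlated between the groups at r = 0.234 over rows. Each of the 9 genes has 1 row, so no other row could be tried. The cause of these changes was not tested, apart from the fewer rows or arrays of the alternative itself.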

Other observations

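Changes of one gene relative to another were read within each array, since a level of one row cannot be set against that of another but its change between arrays can. Ptgs1 minus Ptgs2 was 1.24 on both control arrays, 1.65 on MSCT replicate 1 and 2.93 on MSCT replicate 2 (log2 intensity), so both MSCT arrays had more Ptgs1 relative to Ptgs2 than either control array. Ptgs1 minus Hpgd, a synthesizing against a degrading enzyme, was -2.75 and -3.31 in the control rats, against -1.78 and -1.62 in MSCT rats, a mean change of 1.33. Most of this change is that of Ptgs1 (1.28), since Hpgd differed by -0.05. Ptgs1 minus Ptges, in contrast, was 3.42 and 4.06 against 3.99 and 3.31, where the groups overlapped. Of the receptors, Ptger4 minus Ptger3 was 0.66 and 1.48 in the control rats, against 1.88 and 1.76 in MSCT rats, a mean change of 0.75. These pairs restate the differences of their genes given above. They were chosen after the values were seen, and no test was run on them.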
